A study of Homo sapiens with 50 samples.

Results

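The comparison described here set A549 cells that had spent 24 h in a new medium containing serine against the same line before the medium was changed. A549 is an established line from a human lung adenocarcinoma. The samples were chosen by their titles alone, and they make up 6 of the 50 arrays of the series: 3 labelled preSwitch, from cells in RPMI that the labels call full medium, and 3 labelled plus SER 0hr DMSO, from cells moved to BME+NEAA medium, a basal medium with non-essential amino acids, with serine. The study itself asked how compound 16, which activates the pyruvate kinase PKM, acts on A549 cells with and without serine, and the cells compared here received no compound. The arrays labelled DMSO belong to the time at which that solvent was added, 24 h after the change, and the preSwitch arrays carry no treatment label. Neither the serum content of the media, nor cell density, nor the time since the RPMI cells were last fed is given in the labels. Arrays numbered 1 to 3 in the titles are all preSwitch and arrays 13 to 15 all switched, so a shift between blocks of arrays and the change of medium cannot be told apart.

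Fresh medium, serum and growth factors act on cells first through immediate early genes. These encode mostly short-lived transcription factors such as EGR1 and FOS, which MAP kinase signalling switches on within minutes from promoters that bind serum response factor, and which fall again as the stimulus ends. Their products and NF-kappaB drive chemokines such as CXCL8. Lipid supply is sensed elsewhere: when sterols run low in the endoplasmic reticulum, the SREBP transcription factors are cut free and raise the enzymes of cholesterol and fatty acid synthesis, among them MSMO1. Amino acid supply is read through ATF4, whose targets include ASNS and the serine synthesis enzymes.

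Promoter sequences of 4 genes that moved are printed to show the letters that such factors are known to bind. All are from RefSeq on build GRCh38.p14, 5′ to 3′ on the gene's own strand, from 250 bases before to 50 bases after the gene start, and capitals mark the motif. For EGR1 (chr5:138465229-138465528, plus strand), the gene with the deepest fall, they mark both matches to the CArG box, the site of serum response factor, at -105 and -83 from the gene start. In DUSP1 (chr5:172771146-172771445, minus strand), a MAP kinase phosphatase that fell, they mark the cyclic AMP response element TGACGTCA at -125. In CXCL8 (chr4:73740319-73740618, plus strand), a chemokine that fell, they mark the AP-1 site TGACTCA at -137, whose ligands include FOS. In SREBF2 (chr22:41832855-41833154, plus strand), which encodes the SREBP of sterol synthesis and rose, they mark a match to the SREBP site TCACNCCAC at -133.
EGR1: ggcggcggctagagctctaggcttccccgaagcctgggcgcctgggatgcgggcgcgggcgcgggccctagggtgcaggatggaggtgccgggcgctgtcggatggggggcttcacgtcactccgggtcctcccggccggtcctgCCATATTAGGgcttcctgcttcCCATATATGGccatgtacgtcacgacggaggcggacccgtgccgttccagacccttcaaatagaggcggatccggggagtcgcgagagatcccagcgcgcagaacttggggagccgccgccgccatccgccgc
DUSP1: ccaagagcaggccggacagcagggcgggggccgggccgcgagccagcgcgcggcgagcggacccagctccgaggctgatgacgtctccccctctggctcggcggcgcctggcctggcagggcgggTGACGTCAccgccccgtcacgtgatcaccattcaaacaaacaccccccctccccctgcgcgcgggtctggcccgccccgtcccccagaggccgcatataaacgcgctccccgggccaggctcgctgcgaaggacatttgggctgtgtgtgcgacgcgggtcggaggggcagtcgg
CXCL8: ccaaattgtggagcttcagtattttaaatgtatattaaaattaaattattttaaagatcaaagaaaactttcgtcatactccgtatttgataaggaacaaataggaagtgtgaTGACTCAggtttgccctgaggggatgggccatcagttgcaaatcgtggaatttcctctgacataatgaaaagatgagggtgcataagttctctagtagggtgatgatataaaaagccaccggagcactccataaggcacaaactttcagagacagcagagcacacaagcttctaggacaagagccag
SREBF2: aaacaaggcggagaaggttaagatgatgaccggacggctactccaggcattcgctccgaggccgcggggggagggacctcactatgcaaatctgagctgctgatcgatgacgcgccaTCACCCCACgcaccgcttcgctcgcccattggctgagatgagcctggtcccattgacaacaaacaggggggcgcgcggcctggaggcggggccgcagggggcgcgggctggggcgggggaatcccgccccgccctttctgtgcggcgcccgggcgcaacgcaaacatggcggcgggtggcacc
Each motif was searched as these letters on both strands, and 14492 promoters of this length were searched. The CArG box was in 1.26% of them, TGACGTCA in 2.63%, TGACTCA in 3.67% and TCACNCCAC in 1.17%. A match describes the letters and is neither a proven site nor a cause. Of the promoters in the table, 2 of 20 from immediate early genes (10.0%) held a CArG box, and 5 of 21 from chemokine and cytokine genes (23.8%) held TGACTCA. TCACNCCAC was in 0 of 15 promoters of cholesterol synthesis genes, 0 of 16 of fatty acid synthesis genes and 1 of 10 of sterol sensing and uptake genes, which says only that these letters were not in the windows searched.

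The arrays are Affymetrix HG-U219 chips, and signals are given as the log2 values the authors deposited. A difference of 1 on this scale is a 2-fold change, and each difference stands with its SE from a limma fit over all arrays. Calls were made where p, adjusted over all genes by Benjamini and Hochberg's method, was under 0.05. Of 18239 genes tested, 3962 were called (21.7%), 2237 higher (12.3%) and 1725 lower (9.46%) after the change of medium, and with the 6 arrays fitted alone the count was 2513. Counts and shares of called list members below stand against these shares of all genes. In 33.5% of all genes the arrays of the groups did not overlap, 18.3% with the switched arrays on top and 15.2% below. The largest differences lay on the lower side. Of the called genes 84 were at least 2-fold higher and 107 at least 2-fold lower, and at 4-fold the counts were 0 and 25. The median difference over all genes was 0.01, and the quartiles were -0.13 and 0.16.

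The labelled cell type was checked against its markers. Keratins KRT8 and KRT18 read 13.57 and 14.30 before and 13.69 and 14.33 after the change, and the enzymes AKR1B10 and ALDH1A1, abundant in A549 cells, 14.29 and 14.27 before and 14.32 and 14.29 after. Of the 15 measured A549 and lung epithelial markers 3 rose and 1 fell (26.7% called, against 21.7% of all genes). KRT19, AKR1C1 and CDH1 rose by 0.57 ± 0.06, 0.43 ± 0.08 and 0.23 ± 0.07, and ALDH3A1 fell by 0.15 ± 0.06. The call of CDH1 was lost without preSwitch array 1 or 2, and that of ALDH3A1 without any array other than switched array 13. The surfactant genes SFTPB, SFTPC, SFTPD and SFTPA1 read between 3.82 and 5.02. On the same arrays 23 nonspecific control probe sets had a median of 3.93 and a 90th percentile of 4.80. Of markers of other cell types, 1 of 9 leukocyte genes rose, LYZ by 0.77 ± 0.23, and its call was lost without switched array 14 (0.41, adjusted p = 0.253). The summed signal of those 9 genes was 44.77 to 45.10 before and 44.53 to 46.16 after, that of 8 endothelial genes, 0 of them called, 38.27 to 38.81 and 39.06 to 40.11, and that of 10 fibroblast genes 44.55 to 45.39 and 44.36 to 45.49. Of the fibroblast genes 1 was called, THY1, lower by 0.38 ± 0.12 from a mean of 5.04 to 4.66. Its call was lost without switched array 13 or 15 or preSwitch array 1 or 3. PTPRC, CD3D, CDH5, COL1A2 and DCN, members of these lists, stayed under 4.80 in both groups. The endothelial gene EGFL7 read 7.49 before and 7.73 after and was not called. Of 8 neuronal genes TUBB3 fell, by 0.45 on the log2 scale, and SNAP25, RBFOX3 and SYT1 rose by 0.19 to 0.50, of which RBFOX3 and SYT1 lost the call with the mean of all probe sets (summed signal 58.73 to 59.11 before and 59.51 to 59.76 after).

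Signs of sample quality differed between the groups. The 3′ minus 5′ signal of ACTB averaged 1.37 before and 1.22 after the change, against 1.01 to 1.32 in the other groups of the series, while that of GAPDH was -0.16 in both. The 18S and 28S ribosomal RNA control probe sets read 13.15 and 9.41 before and 12.83 and 9.07 after, with 12.82 to 13.06 and 9.03 to 9.31 elsewhere, so the preSwitch arrays lay above every other group on all 3 measures. Hybridization spikes (10.84 and 10.89), array medians (5.50 and 5.53) and the spread between arrays of a group (0.232 and 0.230, an SD across genes of pairwise differences) were close. The part of these measures in the results that follow was not tested. In RNA of whole cultures, less RNA per cell and fewer cells of a kind cannot be told apart.

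Immediate early genes fell almost as a block. EGR1, a zinc finger transcription factor, read 11.46, 11.59 and 11.57 in the preSwitch arrays and 5.78, 5.49 and 5.64 after 24 h in the new medium. The groups lay far apart, and EGR1 fell by 5.90 ± 0.21 on the log2 scale (59.9-fold, adjusted p = 1.22e-22), the largest difference of any gene tested. FOS, an AP-1 subunit, stood at 10.48, 10.51 and 10.35 before and 6.85, 7.28 and 6.84 after, and fell by 3.46 ± 0.14 on the log2 scale (11.0-fold, adjusted p = 2.94e-21). Its switched array 14 was the highest of the 3 and still well below every preSwitch array. The orphan nuclear receptor NR4A1 went from 12.90, 12.83 and 12.97 to 9.20, 9.30 and 9.34 (12.3-fold lower, adjusted p = 2.89e-26), the smallest p of the whole comparison. ATF3, a stress-induced repressor, went from 10.33, 10.38 and 10.37 to 6.77, 7.06 and 7.02 (10.6-fold lower). All of these had called falls with no overlap between groups.

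Of the 27 measured members of the list (of 29 listed), 24 fell, 1 rose and 2 were not called, against 9.46% and 12.3% of all genes, and the list median was -1.57. FOSL1, NR4A3 and NR4A2, relatives of FOS and NR4A1, were at -3.15 ± 0.20, -3.12 ± 0.15 and -2.34 ± 0.12, all called. IER2 and IER3, short-lived early gene products, fell by 1.93 ± 0.09 and 1.91 ± 0.08. MYC, the growth regulator, read 12.77, 12.79 and 12.86 before and 11.39, 11.37 and 11.31 after (2.73-fold lower, adjusted p = 5.22e-18). The Krüppel-like factors KLF10, KLF2 and KLF6 fell too, at -1.82 ± 0.11, -1.81 ± 0.09 and -1.24 ± 0.09, as did ZFP36, which speeds the decay of such messages, at -1.72 ± 0.06. JUNB fell by 1.56 ± 0.14 and JUN by 1.02 ± 0.15. The exception was BTG1, an antiproliferative gene, which rose by 0.31 ± 0.07 (adjusted p = 0.000598). EGR4 and JUND, at -0.21 ± 0.16 and -0.19 ± 0.22, did not pass the test.

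**Figure D1:**
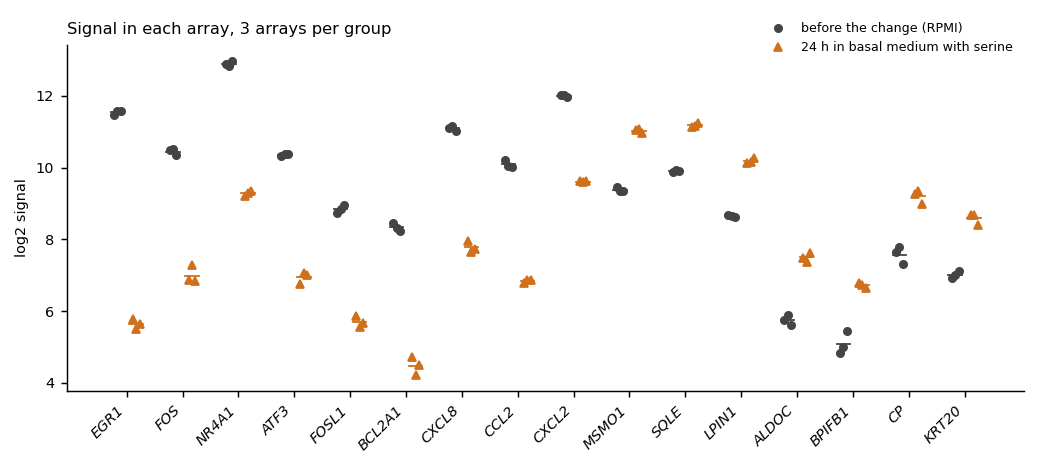
Log2 signal of 16 named genes in each of the 3 arrays before the change of medium (circles) and 24 h after it with serine (triangles), with short lines at the group means. Genes from EGR1 to CXCL2 lie lower and genes from MSMO1 to KRT20 higher after the change, and in none of them do the groups overlap (EGR1 averages 11.54 before and 5.64 after).

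Genes that MAP kinase signalling induces, most of them to restrain it, moved the same way in the main. Of 18 measured, 10 fell and 1, the ETS factor ETV5, rose by 0.29 ± 0.07 (61.1% called). The median was -0.56. DUSP1 read 11.12, 11.15 and 11.14 before and 9.36, 9.39 and 9.45 after, and with DUSP5 (11.96, 12.04 and 12.01 against 10.40, 10.25 and 10.38) it gave the clearest falls among the dual-specificity phosphatases. Their differences were -1.73 ± 0.10 and -1.66 ± 0.08, with no overlap. SPRY2, an inhibitor of receptor signalling, fell by 1.11 ± 0.10, PHLDA1 by 1.02 ± 0.06 and ERRFI1, which binds and blocks the EGF receptor, by 0.96 ± 0.05. DUSP6, another dual-specificity phosphatase, fell by 0.71 ± 0.12. MAP kinase activity itself was not measured. Of 7 measured EGF receptor ligands, EREG, HBEGF and NRG1 fell, by 2.05 ± 0.10, 1.29 ± 0.20 and 0.78 ± 0.08, while EGF itself rose by 0.43 ± 0.13 from a mean signal of 4.32 to 4.75, inside the range of the nonspecific controls, and its call was lost without preSwitch array 3 (adjusted p = 0.0632).

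Targets of the growth regulator YAP and of serum response factor that shape the cytoskeleton and matrix fell in 8 of 15 cases, with 1 higher, 0 without switched array 14 or 15 or preSwitch array 2 or 3, and a median of -0.29. CCN1, a matricellular protein, read 10.68, 10.68 and 10.67 before and 8.25, 8.35 and 8.26 after (5.24-fold lower, adjusted p = 1.98e-12). CCN2 fell by 1.51 ± 0.11, ANKRD1 by 1.61 ± 0.19 and the receptor kinase AXL by 0.67 ± 0.06. Among 15 TGF-beta targets 5 fell and 3 rose, with a median of -0.09: SNAI2, a repressor of epithelial genes, lay at 7.42 or above in each array before and at 4.94 or below after (at least 7.22-fold lower, set against the 90th percentile of the nonspecific controls), and SMAD7, the inhibitory SMAD, fell by 0.99 ± 0.11, while PMEPA1 rose by 0.33 ± 0.06. The matrix protein FN1 rose as well, by 0.62 ± 0.06 (FN1 arrays at 11.36, 11.42 and 11.31 before and 12.06, 12.05 and 11.84 after). The TGF-beta list thus did not move one way.

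All 4 members of the ID family fell, of which ID1, ID2 and ID3 were already counted among the falls of the TGF-beta list. ID proteins pair with basic helix-loop-helix factors and keep them off DNA, and BMP signalling is their usual inducer. ID1 read 13.50, 13.54 and 13.50 before and 12.31, 12.27 and 12.13 after, ID2 fell by 1.16 ± 0.07, ID3 by 1.41 ± 0.05 and ID4 by 3.08 ± 0.24 to a mean of 4.97, near the nonspecific controls. Notch targets fell alongside: HES1 read 11.57, 11.56 and 11.61 before and 8.67, 8.84 and 8.80 after (7.02-fold lower, adjusted p = 3.65e-24). NRARP, a feedback inhibitor of Notch, fell by 2.82 ± 0.20, and HEY1, a related repressor, was at -2.34 ± 0.13, ending at 4.71 (at least 4.72-fold lower, by the bound used for SNAI2). Of 16 Notch pathway genes 6 fell and 2 rose (0 without preSwitch array 1 and 1 without any other array but preSwitch array 2), with a median of -0.10, and the receptors NOTCH1 and NOTCH3, at -0.07 ± 0.11 and 0.12 ± 0.16, did not pass. The ID and Notch lists were drawn up after these values had been seen.

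Chemokines and cytokines held deep falls as well. CXCL8, the neutrophil attractant interleukin 8, read 11.11, 11.16 and 11.03 before and 7.95, 7.66 and 7.74 after, and fell by 3.32 ± 0.20 on the log2 scale (9.98-fold, adjusted p = 3.57e-16). CCL2, which draws monocytes, went from 10.22, 10.03 and 10.01 to 6.79, 6.86 and 6.87 (9.50-fold lower), and CXCL2 from 12.02, 12.02 and 11.98 to 9.61, 9.59 and 9.63 (5.26-fold lower). The groups did not overlap for any of them. CCL20, CXCL1, IL11 and CXCL3 fell by 2.64 ± 0.19, 1.73 ± 0.15, 1.75 ± 0.21 and 1.51 ± 0.18, CCL20 to a mean under the 90th percentile of the nonspecific controls (at least 5.63-fold). The cytokine LIF fell by 0.96 ± 0.08. IL6 read 4.56, 5.48 and 5.39 before and 4.18, 3.98 and 4.23 after, within or near the signals of the nonspecific controls. Of 29 measured members 14 fell and 0 rose (48.3% called), with a median of -0.22. The count lower was 8 when dim genes were left out, an alternative that tested fewer genes.

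Of 15 NF-kappaB targets, among them genes that feed back on this transcription factor, 11 fell and 0 rose (73.3% called). The median was -0.61. TNFAIP3, a deubiquitinase that ends NF-kappaB signalling, read 8.24, 8.06 and 8.33 before and 6.02, 6.27 and 5.60 after (4.74-fold lower). NFKBIA, the inhibitor that holds NF-kappaB in the cytoplasm, went from 11.33, 11.30 and 11.29 to 9.66, 9.76 and 9.84 (2.94-fold lower, adjusted p = 1.68e-19). The NF-kappaB subunits RELB and REL fell by 1.56 ± 0.16 and 0.70 ± 0.15, and PTGS2, the inducible cyclooxygenase, by 0.89 ± 0.07. Outside the list, BCL2A1, an antiapoptotic BCL2 relative, went from 8.46, 8.31 and 8.23 to 4.72, 4.22 and 4.49, at least 11.6-fold lower. Where a group mean was under the 90th percentile of the nonspecific controls, 4.80, the fold is a bound set against that percentile. The other probe set of BCL2A1, at 3.95 before and 4.17 after, was at the level of the controls. ICAM1 and TRAF1 lay between 4.65 and 4.77 in both groups.

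**Figure D2:**
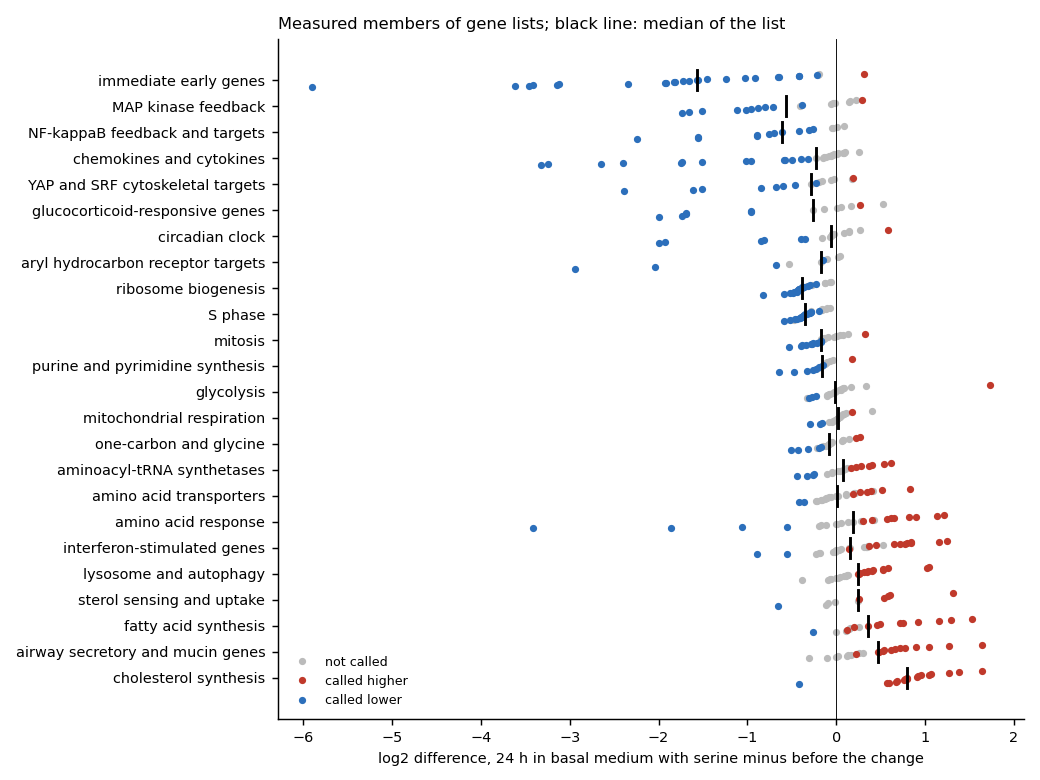
Log2 difference (24 h in basal medium with serine minus before the change) of each measured member of 24 gene lists, with called members in red (higher) or blue (lower), members not called in grey and the list median as a black line. Immediate early genes reach -5.90 with a median of -1.57, and cholesterol synthesis has 16 of 17 members higher with a median of 0.80.

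Several other inducible programmes held genes with deep falls. Of 9 targets of the aryl hydrocarbon receptor 4 fell, 2 with the 6 arrays alone, and 0 rose, led by TIPARP, an ADP-ribosyltransferase that restrains the receptor, from 11.78, 11.74 and 11.87 to 8.93, 8.82 and 8.82 (7.68-fold lower), and CYP1B1, a xenobiotic hydroxylase, from 11.89, 11.82 and 11.85 to 9.85, 9.84 and 9.75 (4.11-fold lower). Of 17 clock genes 6 fell and 1 rose (41.2% called), the count higher being 0 without any switched array or preSwitch array 3. PER1, the repressor that light and serum induce, fell by 2.00 ± 0.17 and BHLHE40 by 1.93 ± 0.09. Of 13 glucocorticoid-responsive genes 6 fell and 1 rose (0 without switched array 14 or preSwitch array 2, 2 without switched array 13), with SGK1, a kinase of sodium transport, falling by 1.70 ± 0.11 and ANGPTL4, an inhibitor of lipoprotein lipase, by 1.69 ± 0.16. These falls include PER1, also counted among the clock genes, and DUSP1 and ERRFI1, also counted under MAP kinase feedback. Of 20 hypoxia genes listed, 19 were measured, 5 of them fell and 3 rose (42.1% called). The urokinase PLAU and its receptor PLAUR, induced by AP-1 in many cells, fell by 0.91 ± 0.07 and 1.03 ± 0.08.

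Cholesterol synthesis rose along its whole length. MSMO1, the sterol methyl oxidase that removes methyl groups from lanosterol products, read 9.45, 9.36 and 9.34 before and 11.06, 11.07 and 10.96 after, a rise of 1.65 ± 0.08 (3.13-fold, adjusted p = 2.13e-18). LSS, which folds squalene epoxide into lanosterol, rose by 1.39 ± 0.10, and SQLE, the squalene epoxidase, from 9.88, 9.94 and 9.89 to 11.13, 11.15 and 11.25 (2.42-fold). The groups did not overlap in any of the 17 measured genes (of 20 listed). Of these 16 rose and 1 fell, against 12.3% and 9.46% of all genes, and the median was 0.80. At the start of the path ACAT2 rose by 0.92 ± 0.06 and HMGCS1 by 0.77 ± 0.11, in the middle IDI1 by 1.05 ± 0.10 and FDPS by 0.96 ± 0.06, and at its end DHCR7 by 1.07 ± 0.10. The member that fell was PMVK, phosphomevalonate kinase, at 8.88, 8.83 and 8.92 before and 8.29, 8.49 and 8.58 after (adjusted p = 0.00425). It sits between MVK, which rose by 0.91 ± 0.09, and MVD, which rose by 0.80 ± 0.17.

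Genes that sense and move sterols changed in the same period. INSIG1, which holds the SREBP complex back and is itself an SREBP target, went from 9.45, 9.56 and 9.48 to 10.83, 10.80 and 10.82 (2.50-fold higher). SREBF2 rose by 0.58 ± 0.10 and NPC2, which binds cholesterol in the lysosome, by 0.61 ± 0.07. MYLIP, a ubiquitin ligase that liver X receptors induce and that degrades the LDL receptor, fell by 0.65 ± 0.10. ABCA1, the exporter that liver X receptors induce, read 8.37, 8.31 and 8.14 before and 7.32, 7.27 and 7.12 after (2.05-fold lower, adjusted p = 6.37e-08). In all 5 of 10 sensing and uptake genes rose and 1 fell, with 3 higher without preSwitch array 1 or 2, and of 7 export genes ABCA1 was the 1 called. Without switched array 14 or preSwitch array 1, 2 export genes were lower, as they were under several other settings.

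Fatty acid synthesis rose in 11 of 17 genes and 1 fell (70.6% called), with a median of 0.35. SCD, the desaturase that makes oleate, read 12.19, 12.21 and 12.21 before and 13.36, 13.39 and 13.34 after (2.23-fold higher, adjusted p = 9.74e-22). ACSS2, which makes acetyl-CoA from acetate, rose by 1.29 ± 0.10 and FADS1, a desaturase of polyunsaturated fatty acids, by 0.93 ± 0.07. FASN, the synthase itself, rose by 0.50 ± 0.11, ACACA by 0.46 ± 0.06 and ELOVL6 by 0.75 ± 0.13. LPIN1, a phosphatidate phosphatase of triglyceride synthesis, gave the largest rise of the list, from 8.68, 8.64 and 8.63 to 10.12, 10.15 and 10.26 (2.88-fold). ELOVL1 was called lower, at -0.26 ± 0.09, and 0 members were lower with the 6 arrays alone, without switched array 13 or 14, or without preSwitch array 1 or 2.

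**Figure D3:**
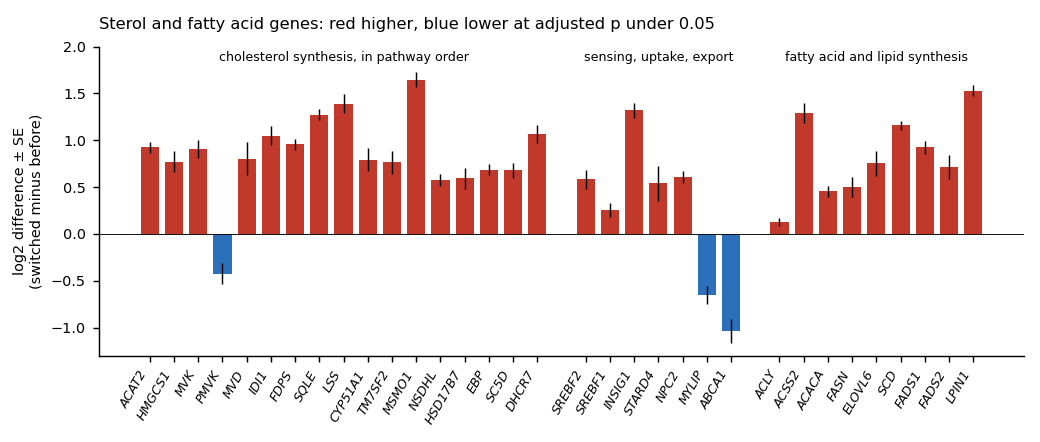
Log2 difference (switched minus before, bars from 0, error bars SE, n = 3 arrays per group) of cholesterol synthesis genes in pathway order, called genes of sterol sensing, uptake and export, and selected fatty acid and lipid synthesis genes. Bars are red where higher and blue where lower at an adjusted p under 0.05: MSMO1 reaches 1.65 and LPIN1 1.53, while PMVK, MYLIP and ABCA1 lie at -0.42, -0.65 and -1.03.

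Airway secretory and mucin genes rose in 13 of 22 measured members (59.1% called), with 0 lower (1 without preSwitch array 2). The median was 0.48. BPIFB1, a secreted defence protein of the airway, read 4.82 to 5.44 in the arrays before and 6.79, 6.74 and 6.64 after, a rise of 1.64 ± 0.17 (3.11-fold). Before the change it lay near the nonspecific controls. MUC5B, a gel-forming mucin, rose from 7.73, 7.86 and 8.25 to 9.01, 9.41 and 9.24 (2.42-fold), and the iron-sequestering LCN2 from 8.87, 8.68 and 8.67 to 9.91, 9.65 and 9.81 (2.07-fold). TFF1, a trefoil peptide of mucus, rose by 0.90 ± 0.10, the protease inhibitor SLPI by 0.66 ± 0.06 and SPDEF, a transcription factor of goblet cells, by 0.47 ± 0.15. Members at the level of the controls, such as BPIFA1 (4.35 before and 4.34 after), were not called. Outside the list, CP, the ferroxidase ceruloplasmin, rose from 7.64, 7.77 and 7.32 to 9.27, 9.35 and 8.99 (3.08-fold), and KRT20, an intestinal keratin, rose by 1.58 ± 0.08.

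Lysosome and autophagy genes rose in 13 of 24 members (54.2% called), with 0 lower (1 without switched array 15). The median was 0.25. WIPI1, which binds the forming autophagosome, read 7.49, 7.66 and 7.24 before and 8.57, 8.53 and 8.41 after (2.06-fold), and NEU1, the lysosomal sialidase, 8.10, 7.93 and 8.27 before and 9.03, 9.20 and 9.12 after (2.03-fold). The other rises were smaller, with RRAGD, a GTPase that carries nutrient signals to mTORC1, at 0.58 ± 0.12, the protease CTSD at 0.52 ± 0.12 and ULK1, the kinase that starts autophagy, at 0.52 ± 0.13. Of 9 iron genes 3 rose and 2 fell (55.6% called). SLC40A1, the iron exporter, rose by 0.98 ± 0.12 and TFRC, the transferrin receptor, fell by 0.21 ± 0.05. The promoters of 6 of 19 lysosome genes in the table (31.6%) held CACGTG, against 8.81% of all promoters searched.

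Genes of growth and division fell modestly. Of 27 S phase genes 18 fell and 0 rose, with a median of -0.35, and the falls were small: POLE2, a subunit of DNA polymerase epsilon, had the largest, from 9.77, 9.87 and 9.82 to 9.14, 9.31 and 9.24 (1.50-fold lower, adjusted p = 7e-08). The replication licensing factor CDC6 fell by 0.39 ± 0.06 and the helicase subunit MCM2 by 0.38 ± 0.08. Of 25 mitosis genes 11 fell and 1 rose, with a median of -0.17, and the count lower was 6 with the 6 arrays fitted alone and 7 without switched array 14. The count higher was 0 without any switched array or preSwitch array 3. CDC20, an activator of the anaphase-promoting complex, fell by 0.39 ± 0.06 and the kinesin KIF23 by 0.38 ± 0.07. Among G1 regulators, SKP2, which marks the inhibitor p27 for destruction, read 8.43, 8.21 and 8.20 before and 7.28, 7.21 and 7.25 after (2.04-fold lower), and CDKN1B, which encodes p27, rose from 9.22, 9.07 and 9.16 to 10.00, 9.92 and 9.83 (1.70-fold). CDK6 fell by 0.68 ± 0.08, CCND1 by 0.39 ± 0.06 and CCNG2, a cyclin of arrested cells, rose by 1.01 ± 0.13.

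Ribosome biogenesis fell in 17 of 23 genes, with 0 higher and a median of -0.39. NOP16, a nucleolar protein, read 11.14, 11.20 and 11.23 before and 10.60, 10.61 and 10.59 after (1.51-fold lower, adjusted p = 1.09e-10), and BOP1, a factor of the large subunit, fell by 0.82 ± 0.10. NOLC1, NOP58 and DKC1, which process ribosomal RNA, had differences of -0.44 to -0.42. Of 15 purine and pyrimidine synthesis genes 7 fell, 4 with the 6 arrays alone, and 1 rose, 0 without any switched array or preSwitch array 2 or 3, with CTPS1, the CTP synthase, falling by 0.65 ± 0.08 and PPAT, the first enzyme of purine synthesis, by 0.48 ± 0.08. CACGTG, the E-box that MYC binds, was in 8 of 18 ribosome biogenesis promoters in the table (44.4%). Of 22 p53 targets 6 fell and 3 rose (40.9% called), with a median of 0.03. GADD45A fell by 0.89 ± 0.07 and TP53INP1 rose by 0.95 ± 0.09.

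The amino acid response was mixed, and the 3 serine synthesis enzymes rose although serine was in the new medium. PHGDH, the first of these enzymes, read 9.31, 9.16 and 9.21 before and 10.01, 10.11 and 10.11 after, a rise of 0.85 ± 0.08 (1.80-fold, adjusted p = 1.36e-10). PSAT1 rose by 0.26 ± 0.08 and PSPH by 0.23 ± 0.06. Both calls were lost with the 6 arrays fitted alone (adjusted p = 0.0737 and 0.0918), and that of PSAT1 also without switched array 13 (0.0640) or preSwitch array 2 (0.122). ASNS, the asparagine synthetase, went from 11.12, 11.05 and 11.15 to 11.89, 11.88 and 12.00 (1.76-fold higher). NUPR1, a stress-induced chromatin protein, rose by 1.21 ± 0.12, PCK2 by 0.90 ± 0.09, TRIB3 by 0.65 ± 0.07 and ATF4 itself by 0.30 ± 0.05. ATF3, described above, fell, as did PPP1R15A, which restores translation after stress, by 1.86 ± 0.14, the cytokine GDF15 by 1.06 ± 0.08 and ATF5 by 0.56 ± 0.09. In all 9 of 23 members rose and 4 fell, with a median of 0.19.

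Genes of amino acid handling beyond that list changed in both directions. Of 19 aminoacyl-tRNA synthetases 7 rose and 4 fell (57.9% called, against 21.7% of all genes), with a median of 0.08, and the count lower was 2 without switched array 15 and 1 without preSwitch array 3: AARS1, which charges alanine, rose by 0.62 ± 0.08, CARS1, for cysteine, by 0.54 ± 0.06 and SARS1, for serine, by 0.40 ± 0.07, while FARSB fell by 0.33 ± 0.08. Of 24 transporters 6 rose and 2 fell (33.3%). The count higher was 3 without switched array 13 or 15 or preSwitch array 1, and the count lower was 1 without any array other than switched array 13. SLC1A4, which carries small neutral amino acids such as serine, rose from 7.43, 7.34 and 7.66 to 8.18, 8.39 and 8.35 (1.78-fold), and SLC7A5, a carrier of large neutral amino acids, fell by 0.36 ± 0.07. CBS, which joins serine to homocysteine, rose by 0.94 ± 0.08 (CBS arrays at 9.15, 9.25 and 9.34 before and 10.16, 10.15 and 10.25 after). In the one-carbon and glycine list, 2 of 20 rose and 5 fell (35.0% called) with a median of -0.08. The count higher was 1 without any array other than preSwitch array 1, and the count lower was 3 without switched array 14 or preSwitch array 1. SLC25A32, the mitochondrial folate carrier, fell by 0.43 ± 0.07.

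In central carbon metabolism the share of called genes was near that of all genes (21.7%). Of 20 glycolysis genes 1 rose and 3 fell (20%), with a median of -0.02. The one that rose was ALDOC, the brain-type aldolase, from 5.75, 5.89 and 5.62 to 7.49, 7.36 and 7.63 (3.34-fold), the largest rise of any gene named here. PKM, the target of the compound, was at 10.49, 10.63 and 10.72 before and 10.67, 10.64 and 10.62 after, and its difference of 0.03 ± 0.07 (adjusted p = 0.822) did not pass. TXNIP, an arrestin whose transcription follows glucose phosphates, rose from 5.92, 5.46 and 5.11 to 6.52, 6.93 and 6.41 (2.18-fold, adjusted p = 0.000284). Of 19 mitochondrial respiration genes 1 rose and 3 fell (21.1%), the count higher being 0 without switched array 13 or 14 or preSwitch array 2 or 3, and TFAM, which maintains mitochondrial DNA, was at -0.29 ± 0.08 with a call that was lost without switched array 15 (adjusted p = 0.0599).

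Interferon-stimulated genes rose in 11 of 31 members and 2 fell (41.9% called), with a median of 0.16. IRF9, the DNA-binding part of the interferon response complex, read 8.40, 8.41 and 8.25 before and 9.60, 9.53 and 9.43 after (2.24-fold, adjusted p = 8.49e-13). IFIT2 rose from 4.69, 4.88 and 4.86, near the controls, to 5.74, 5.99 and 6.44, and OAS1, which makes the signal for RNase L, by 0.72 ± 0.08. IRF1, which NF-kappaB also induces, fell by 0.89 ± 0.12 and PSMB9, an immunoproteasome subunit, by 0.56 ± 0.09. Of 20 NRF2 targets 5 rose and 2 fell (35.0% called, against 21.7% of all genes), 3 and 1 with the 6 arrays alone, with the multidrug transporter ABCC3 at 0.64 ± 0.05 and HMOX1, haem oxygenase, at -0.62 ± 0.07. Of 20 genes of the unfolded protein response 6 rose, with XBP1 at 0.54 ± 0.09, and 2 fell (40% called). These were 3 and 1 with the 6 arrays alone, and the count lower was 1 without switched array 13, 14 or 15 or preSwitch array 1 or 3.

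Cells moved to the same medium without serine, also sampled at 0 h in DMSO, gave a direct comparison of the media. Arrays 13 to 15 all had serine and arrays 19 to 21 all lacked it. A shift between blocks of arrays therefore cannot be told apart from an effect of serine. The 28S control probe sets averaged 9.07 with and 9.23 without serine. Both comparisons share the preSwitch arrays, so their values stand side by side, and the test is that of the switched groups against each other. Against preSwitch 5219 genes were called without serine (28.6%), 2922 higher (16%) and 2297 lower (12.6%). EGR1 was at -5.90 ± 0.21 with and -5.67 ± 0.21 without serine, NR4A1 at -3.62 and -3.73 (SE 0.10 each), and MSMO1 at 1.65 and 1.52 (SE 0.08 each). The differences without minus with serine were 0.24 ± 0.21 (adjusted p = 0.587), -0.11 ± 0.10 (0.593) and -0.13 ± 0.08 (0.401), which did not pass the test. FOS, at 0.41 ± 0.14 (adjusted p = 0.073), did not pass either. PHGDH stood at 0.85 and 0.89, a difference of 0.04 ± 0.08 (adjusted p = 0.839). A p above the threshold does not show that the media acted alike.

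Over all genes 1076 differed between the media at 0 h (5.9%), 546 more positive without serine (2.99%) and 530 more negative (2.91%). This count was 6 with the 6 arrays of the media fitted alone. It was 702 and 711 without arrays 19 and 21 of the medium lacking serine, and 696, 703 and 716 without arrays 13, 14 and 15 of the medium with it. With the compound 16 arrays at 0 h in place of the DMSO arrays in both media it was 743, only 419 of them among the 1076. In the amino acid response 14 of 23 genes differed, 12 of them lower without serine and 2 higher, GDF15 by 0.30 and NIBAN1 by 0.82, and the median over the list was -0.26. PSAT1 rose by 0.26 with serine and fell by 0.48 without it (difference -0.74 ± 0.08, adjusted p = 1.26e-07), and ASNS rose by 0.82 and 0.40 (difference -0.41 ± 0.07). SLC1A4 was at 0.83 with and 0.02 without serine, CBS at 0.94 and 0.25, and CARS1 at 0.54 and -0.13 (differences -0.81 ± 0.09, -0.69 ± 0.08 and -0.67 ± 0.06). These 5 genes lay lower in the medium that lacked serine.

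Among sterol genes ACAT2 and FDPS rose less without serine (differences -0.42 ± 0.06 and -0.35 ± 0.06) and INSIG1 more (0.27 ± 0.08). CXCL8 was at -3.32 with and -2.59 without serine (difference 0.73 ± 0.20, adjusted p = 0.0198), while ATF3 and DUSP1 fell further without it (differences -0.60 ± 0.14 and -0.53 ± 0.10). TXNIP rose by 1.12 with and 1.97 without serine, CP by 1.62 and 2.44, LCN2 by 1.05 and 1.55, and WIPI1 by 1.04 and 1.46. These differences of 0.84 ± 0.23, 0.82 ± 0.14, 0.50 ± 0.07 and 0.42 ± 0.09 all passed the test. Of 25 mitosis genes 18 differed, all lower without serine, with a list median of -0.28, and of 27 S phase genes 9, all lower, with a list median of -0.17.

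**Figure D4:**
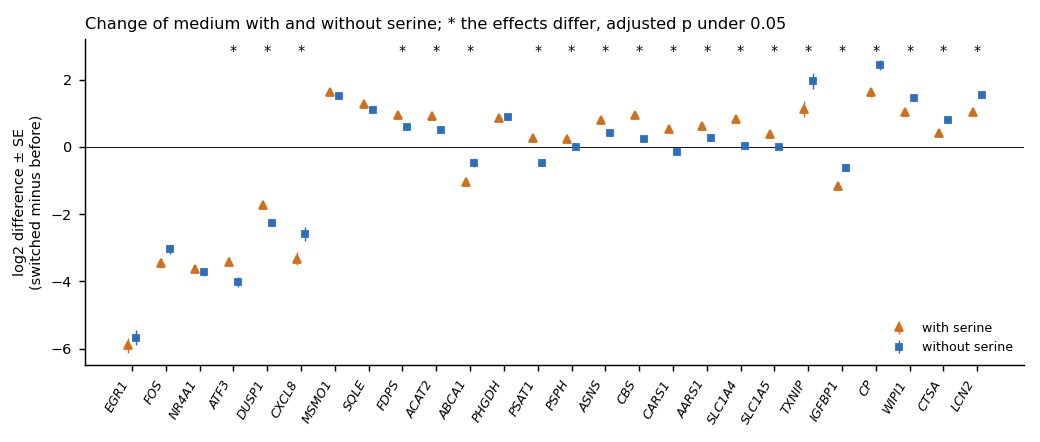
Log2 difference from the preSwitch arrays (points, error bars SE, n = 3 arrays per group) of 26 genes 24 h after the change to medium with serine (triangles) or without it (squares). Both comparisons share the preSwitch arrays, and a star marks genes whose values differ between the media at an adjusted p under 0.05: EGR1, FOS, MSMO1 and PHGDH carry none, while PSAT1 lies at 0.26 with and -0.48 without serine.

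Later DMSO arrays of the medium with serine were taken 25.5, 30 and 48 h after the change. They are described here beside the preSwitch arrays without a test, and each time has its own block of arrays. EGR1 averaged 11.54 before the change, then 5.64, 6.06, 5.26 and 5.39 at 0, 1.5, 6 and 24 h after DMSO, and FOS 10.45, then 6.99, 6.88, 6.46 and 7.05. Both thus stayed low throughout. MSMO1 averaged 9.38 before and 11.03, 11.06, 10.54 and 10.91 later, and SCD 12.20 and 13.36, 13.36, 13.21 and 13.28, so both stayed high. BPIFB1 averaged 6.72 at 0 h and 7.71 at 24 h, and CP 9.20 and 10.28, differences that were not tested.

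At 1.5 h after DMSO, with 2 arrays, several genes that had fallen were high again. NR4A1 averaged 12.90 before the change, 9.28 at 0 h, 11.93 at 1.5 h and 8.64 at 6 h, and NR4A3 8.61, 5.49, 8.19 and 5.18. The rises from 0 to 1.5 h were 2.65 ± 0.11 (adjusted p = 7.87e-20) and 2.70 ± 0.17, in a comparison added after the values had been seen that called 1023 genes (5.61%), 348 higher (1.91%) and 675 lower (3.7%). TIPARP rose by 2.24 ± 0.10, CYP1B1 by 2.07 ± 0.09, CCL2 by 1.78 ± 0.25, ATF3 by 1.37 ± 0.15 and ID2 by 1.14 ± 0.08 in the same interval. EGR1 and FOS did not pass the test there, at 0.43 ± 0.24 (adjusted p = 0.333) and -0.11 ± 0.16 (0.760), and CXCL2 fell by 0.96 ± 0.17. These cells had received DMSO and no compound.

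**Figure D5:**
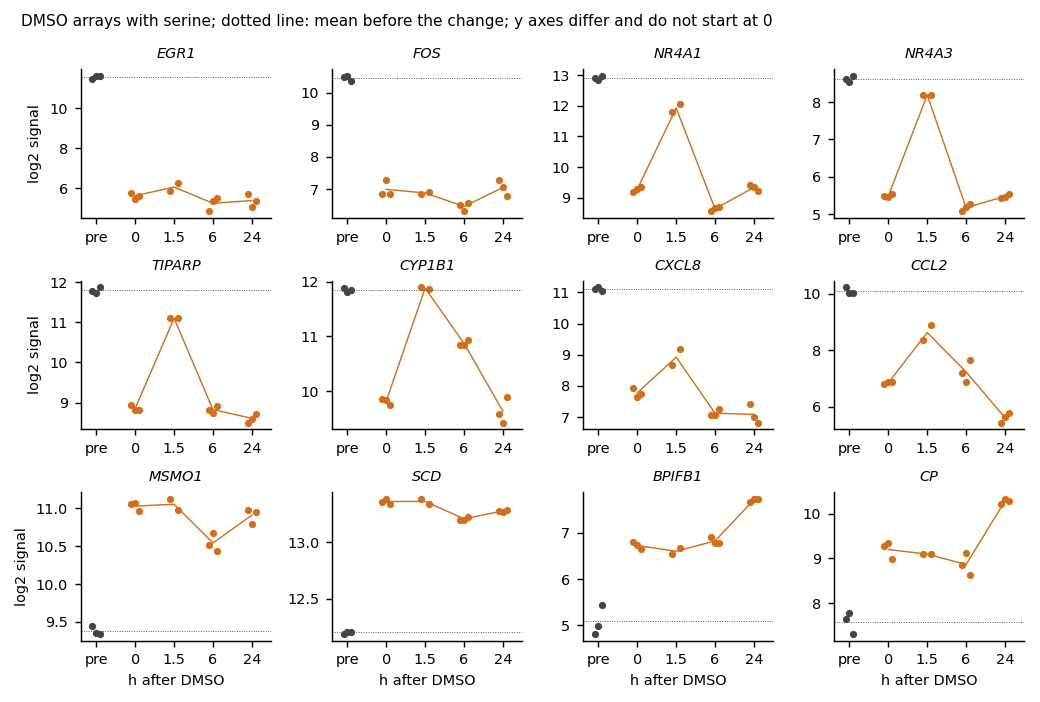
Log2 signal of 12 genes in single arrays before the change of medium (pre, dark points, mean as dotted line) and 0, 1.5, 6 and 24 h after DMSO in medium with serine (orange points, lines through the means; 3 arrays per time, 2 at 1.5 h). The y axes differ and do not start at 0. EGR1 and FOS stay below the dotted line throughout, NR4A1, NR4A3, TIPARP and CYP1B1 rise towards it at 1.5 h, and MSMO1 and SCD stay above it.

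Most leading genes had several probe sets. In BCL2A1 they differed in sign, at -3.86 and 0.22, the second of them at the level of the nonspecific controls. All 6 probe sets of EGR1 were lower after the change (-7.01 to -2.33), all 4 of FOS (-3.47 to -2.68) and all 3 of CXCL8 (-3.32 to -2.96). NR4A1 and ATF3 had 7 each, all negative, at -3.83 to -0.13 and -3.41 to -0.07. The NR4A1 probe set at -0.13 and those of ATF3 at -0.07, -0.17 and -0.33 lay under 4.80 in both groups, at the level of the nonspecific controls. Among the genes that rose, all 4 probe sets of MSMO1 (0.15 to 1.79), SQLE (1.05 to 1.28), SCD (1.16 to 1.59) and CP (1.08 to 1.62) and all 5 of ALDOC (0.68 to 1.74) were positive. The MSMO1 probe set at 0.15 also lay under 4.80 in both groups.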

How the data were processed

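The authors deposited log2 probe set signals made with RMA (background correction, normalization between arrays, probe summary), per the submitters' processing notes, which also name limma; no version is named in the sources used here. Array medians still ranged from 5.40 to 5.54. Normalization between arrays can remove a shift shared by all genes, and changes of dim probe sets are understated. No detection values were used.

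Of 49386 probe sets 45253 name 1 gene in the platform annotation, 1327 several, 2713 none and 93 are controls. For each of 18239 genes (11822 with several probe sets) the probe set with the highest mean was used, with no filter. One limma fit (limma 3.58.1, R 4.3.3) covered 17 group means over 50 arrays, with eBayes (33 residual and 3.7 prior degrees of freedom) and Benjamini-Hochberg adjustment over all genes of a comparison. The median SE was 0.122, limited by the number of arrays. Separate cultures are not stated in the labels, so p-values reflect the spread between these arrays alone, and it may be technical. No arrays held identical values, and 0 columns were without a sample.

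Members, the 46 gene lists (775 of 822 members measured) and tests were chosen with earlier results of these data known. Named genes were EGR1, FOS, MSMO1, CXCL8, TXNIP, PHGDH, PSAT1, PSPH, ASNS and PKM, the 12 largest rises and falls among called genes with no overlap between arrays, and up to 4 called members of each list with the smallest p (the smallest p where none was called). Other list members named, and the Notch and ID lists, were chosen after their values were seen. Some genes are on several lists and are counted in each, so the lists are not separate observations. The fit was also run on simulated arrays with independent noise and no block shift, which cannot speak to block effects in these data. Alternatives were a filter on dim genes, quantile normalization, centring, the compared arrays alone, a trended robust prior, array weights, the mean of all probe sets, the compound 16 arrays at 0 h in place of or beside the DMSO arrays, and leaving out each array. Promoters came from RefSeq (132 of 171 named genes matched). Motifs TTTGAA, TGATGNAA and TTTGGCGC were searched too, and were in 12.1%, 2.55% and 0.89% of promoters.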

Additional observations from a re-analysis of the deposited data

Results flagged for a closer look

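At 0 h 1076 genes differed between the media with and without serine by the limma test of the groups against each other. With the compound 16 arrays at 0 h in place of the DMSO arrays 743 differed, and only 419 of them were among the 1076. Blocks of arrays coincide with these media, so the parts of block and serine cannot be told apart. Values that follow are the effect without serine minus the effect with it, on the log2 scale, for the 54 of 171 named genes that passed.

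More negative without serine were amino acid and serine genes: SLC1A4 at -0.81, PSAT1 at -0.74, CBS at -0.69, CARS1 at -0.67, ASNS at -0.41, SLC1A5 at -0.40, SLC7A5 at -0.37, AARS1 at -0.36 and PSPH at -0.23. So were the cartilage membrane protein gene SNORC at -0.64, the aldolase ALDOC at -0.53, the early genes ATF3 at -0.60, DUSP1 at -0.53 and DUSP5 at -0.25, and the sterol genes ACAT2 at -0.42 and FDPS at -0.35. Genes of growth and division in this direction were SKP2 at -0.53, CTPS1 at -0.37, GINS2 at -0.29, BIRC5 at -0.27, CDC20 at -0.26, TPX2 at -0.25, TYMS at -0.23 and PRIM1 at -0.17. Stress genes were MT1X at -0.42, MT1F at -0.34, HERPUD1 at -0.32 and HSPA2 at -0.26.

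More positive without serine were TXNIP at 0.84, CP at 0.82, CXCL8 at 0.73, ABCA1 at 0.57, IGFBP1 at 0.56, LCN2 at 0.50 and TFF1 at 0.48. Lysosome and autophagy genes in this direction were WIPI1 at 0.42, CTSA at 0.37, NEU1 at 0.29 and HEXA at 0.23. Others were FN1 at 0.35, XBP1 at 0.34, PDIA3 at 0.33, IRF9 at 0.32, GDF15 at 0.30, GPX1 at 0.29, INSIG1 at 0.27, PTGS2 at 0.27, ALDH3A1 at 0.25, AHCY at 0.24, SYT1 at 0.21, HSP90AB1 at 0.21, NOP16 at 0.19, HSP90AA1 at 0.16 and CA12 at 0.15.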

How the results depend on the processing

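The count of 3962 genes was 2513 with the 6 compared arrays fitted alone, 3286 to 3513 when any of them was left out, and 3895 to 4738 under the other alternatives. Centring arrays on their medians moved the higher share from 56.5% to 50.1%. The serine difference of 1076 genes was 6 with its 6 arrays alone, 696 to 865 with an array left out, and 743 to 1359 under the others. The 743 came from the compound 16 arrays at 0 h in place of the DMSO arrays, and only 419 of them were among the 1076. Fewer arrays enter the fits of 6 arrays alone and those with an array left out, while the other alternatives keep all 50. The causes of these shifts were not tested. Over the named genes and all alternatives, 2478 of 2557 values kept their direction and side of the threshold, 77 lost the call and 2 turned. Both were of PKM, not called in any case, at -0.046 with the mean of all probe sets, against 0.03 in the report, and between -0.032 and 0.083 with an array left out, the lowest without preSwitch replicate 1. Calls were lost most often for MT1G, COX5B and IGFBP2. Of the 24 largest changes none lost its call. The signal of a dim gene is limited by the nonspecific level, whose 90th percentile was 4.80. No paired analysis was possible because the groups compared share no replicate number.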

Other observations

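Genes with symbols of ZNF and a number, mostly zinc finger repressors of the KRAB family, were examined after the largest rises had been seen to include ZNF546 (5.22, 5.27 and 5.31 before and 6.76, 6.27 and 6.86 after). Of 491 such genes 108 rose and 23 fell, against 12.3% and 9.46% of all genes, and their median was 0.09.

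FOXO targets and growth arrest genes had a median of 0.25, with 4 of 19 higher and 2 lower (31.6% called, against 21.7% of all genes). The count higher was 9 with the mean of all probe sets. The count lower was 1 without switched array 13 or 15 or preSwitch array 2 or 3. KLHL24 rose by 1.33 ± 0.14, and GADD45B fell by 0.75 ± 0.08. Of 7 insulin-like growth factor binding proteins 2 fell (28.6% called), and 1 without any array other than preSwitch array 2. IGFBP1 went from 10.65, 10.65 and 10.53 to 9.47, 9.61 and 9.24. Of 25 genes of extracellular matrix and proteases 5 rose and 6 fell (44.0% called). The matrix protease MMP7 rose by 0.61 ± 0.07 and the basement membrane collagen COL4A1 fell by 0.75 ± 0.11. In contrast COL4A3, of a different collagen IV network, rose by 1.72 ± 0.23 (5.04, 6.06 and 5.99 before and 7.39, 7.38 and 7.48 after). Of 19 heat shock genes 7 fell and 1 rose (42.1% called). The count lower was 4 with the 6 arrays alone, and the count higher was 2 without preSwitch array 3. HSP90AA1 and HSP90AB1 were at -0.30 ± 0.05 and -0.27 ± 0.05.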
